A study of Mus musculus with 16 samples.

Results

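Calprotectin is the paired complex of S100a8 and S100a9, small calcium-binding proteins that fill the cytoplasm of neutrophils and are also made by monocytes and stressed keratinocytes. Outside the cell the complex binds Tlr4 and Ager, and it withholds zinc and manganese from microbes. The 6 other genes described here belong to the same setting: Retnlg, a resistin-like secreted protein of mouse granulocytes; Cxcr2, the receptor that draws neutrophils toward Cxcl1, Cxcl2 and Cxcl5; Fpr1 and Fpr2, receptors for formylated peptides, with Saa3-type acute-phase proteins and annexin A1 among the described ligands of Fpr2; Csf3r, the receptor of granulocyte colony-stimulating factor; and Trem1, a receptor that signals through Tyrobp and amplifies inflammatory responses.

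These 8 genes were followed by symbol through 16 libraries of 1 deposited table. They are 8 of 24681 listed symbols. All 8 had a value in every library and all 8 passed the filter on low counts, which left 15610 genes. The set was chosen from earlier results on these libraries, in which S100a8, S100a9, Retnlg, Cxcr2 and Fpr2 differed between the combination group and the vehicle or trastuzumab group. Every comparison of groups shares libraries with those results. Differences in level of the 8 genes between groups are therefore given as descriptions, with no p, and nothing is supported by how many of them were called. Each library came from the whole tumour of its own mouse. The tumour cells were AU565(pv), a line of human breast cancer with amplified HER2, xenografted into a mammary fat pad. Hosts were of the SCID strain, in which mature T and B lymphocytes are missing.

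The 4 groups held 4 mice each, and all received intraperitoneal injections once tumours measured 20 to 25 mm2. Vehicle mice received D5W on days 0 and 1 with PBS. Trastuzumab mice received D5W with 10 mg/kg of trastuzumab, an antibody against human HER2. Panobinostat mice received 15 mg/kg of panobinostat, an inhibitor of histone deacetylases, on days 0 and 1 with PBS. Combination mice received both drugs at those doses. Tumours were harvested on day 2. The labels place the antibody on day 0 in one field and on day 1 in another, so its exposure time is uncertain. The counts are for mouse genes in tumours whose cancer cells are human, and how many of the reads were human was not measured. In such bulk tissue, fewer cells of a type and less RNA per cell cannot be told apart.

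Total counts ranged from 4848244 to 8140782 per library, and the 8 genes took 0.0118% to 0.0258% of them. Levels are in CPM, reads of a gene relative to the TMM-scaled total of the tested genes in its library. The fibroblast and macrophage markers were abundant in every group, with summed levels of 11758 to 24071 CPM and of 7931 to 11668 CPM. The neutrophil label of this gene set was checked against 14 neutrophil markers, of which 12 had a value. Some of these markers were at or near 0 and others were not. Ly6g, a surface protein of mouse neutrophils, had 4 counts over all 16 libraries together and was at 0 in 12 of them. The granule genes Camp, Elane, Ngp and Mpo had 12, 16, 19 and 32 counts over the 16 libraries, against 3436 for S100a9 and 7352 for Csf3r. In all, 6 of the 12 markers had under 50 counts. The markers with more were led by Lcn2, Mmp9 and Ltf, which other cells also make. Il1r2, Mmp8 and Cd177 had 560, 179 and 115 counts and were found in every library. Summed neutrophil markers spanned 152 to 220 CPM in vehicle, 134 to 216 with trastuzumab, 129 to 276 with panobinostat and 170 to 255 with the combination, and these ranges overlapped. On average most of these sums came from Lcn2, Ltf and Mmp9, at means of 94.3, 47.7 and 33.0 CPM. Il1r2 was next at 5.70 CPM, so the overlap says little about the scarcer markers. The 8 genes are accordingly called by their own names below, and none of their values is read as a number of neutrophils. Cxcr1 and Mcemp1 were not analysed here.

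One vehicle library, from mouse 21, stood apart in keratinocyte markers. Its 7 such markers summed to 645 CPM, against 71.3 to 109 CPM in the other 15 libraries. Since keratinocytes can make S100a8 and S100a9, values without that library are given where a comparison with vehicle rests on it.

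The promoters of 4 of the 8 genes follow, shown because S100a8 and S100a9 form the one pair that moved together within groups, Retnlg had the widest ratio between groups, and Fpr2 stood at its highest where those 3 were low. Each is the RefSeq window of GRCm38.p6 from 250 bases before to 50 after the annotated start, printed 5′ to 3′ on the gene's strand. Capitals mark matches, on either strand, to 4 motifs of myeloid and inflammatory factors: TTGCNNAA for C/EBP factors, GAGGAA for PU.1, AANNGAAA for interferon regulatory factors and TTCNNNGAA for STAT factors. The windows lie at chr3:90668821-90669120 on the plus strand for S100a8, chr3:90695672-90695971 on the minus strand for S100a9, chr16:48872358-48872657 on the plus strand for Retnlg and chr17:17887574-17887873 on the plus strand for Fpr2.
S100a8: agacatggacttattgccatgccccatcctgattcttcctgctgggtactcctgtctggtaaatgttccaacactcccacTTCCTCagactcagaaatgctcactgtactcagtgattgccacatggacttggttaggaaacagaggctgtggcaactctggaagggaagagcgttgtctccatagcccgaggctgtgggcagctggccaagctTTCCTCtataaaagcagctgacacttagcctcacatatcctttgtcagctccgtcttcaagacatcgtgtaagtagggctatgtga
S100a9: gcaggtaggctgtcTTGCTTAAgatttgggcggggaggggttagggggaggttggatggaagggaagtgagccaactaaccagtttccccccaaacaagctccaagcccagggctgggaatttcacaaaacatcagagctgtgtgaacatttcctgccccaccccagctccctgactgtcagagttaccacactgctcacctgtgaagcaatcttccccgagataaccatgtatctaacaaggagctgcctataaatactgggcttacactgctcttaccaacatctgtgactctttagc
Retnlg: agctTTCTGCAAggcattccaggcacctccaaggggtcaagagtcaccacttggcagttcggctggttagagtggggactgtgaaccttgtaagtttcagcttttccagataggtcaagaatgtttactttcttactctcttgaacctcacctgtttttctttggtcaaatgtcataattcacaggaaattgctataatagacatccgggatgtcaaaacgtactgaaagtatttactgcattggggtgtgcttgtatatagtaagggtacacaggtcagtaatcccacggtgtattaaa
Fpr2: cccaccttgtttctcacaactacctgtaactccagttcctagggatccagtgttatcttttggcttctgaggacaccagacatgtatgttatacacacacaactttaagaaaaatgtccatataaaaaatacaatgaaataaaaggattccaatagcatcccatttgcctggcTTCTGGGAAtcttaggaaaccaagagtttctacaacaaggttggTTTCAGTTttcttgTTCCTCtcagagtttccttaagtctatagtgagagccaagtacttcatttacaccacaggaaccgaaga

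In the S100a8 window both capital runs are GAGGAA read on the opposite strand, at 170 and 36 bases before the start. The S100a9 and Retnlg windows each held 1 match to the C/EBP letters, 236 and 246 bases before the start. The Fpr2 window held a STAT match at 77, an interferon regulatory factor match at 33 and a PU.1 match at 19 bases before the start. Over the 8 genes, PU.1 letters were found in 5 windows and each of the other 3 motifs in 2. Among 32841 windows of the same length, 28.3% held the PU.1 letters, 23.9% the interferon regulatory factor letters, 10.8% the C/EBP letters and 8.30% the STAT letters. No match was found in the Fpr1 window. These are matches of letters and say nothing about binding.

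S100a8 and S100a9 lie close together on chromosome 3 on opposite strands, S100a8 at 90668978 to 90670035 and S100a9 at 90692632 to 90695721 (GENCODE, GRCm38). Retnlg is on chromosome 16 (48872621 to 48874496), Cxcr2 on chromosome 1 (74153989 to 74161246) and Csf3r on chromosome 4 (126024550 to 126044440). Chromosome 17 carries Fpr1 (17876471 to 17883940), Fpr2 (17887824 to 17893952) and Trem1 (48232768 to 48246924). Exons of Fpr2 overlap those of Fpr3 on the same strand, and 31.5% of the 50-base stretches of Fpr2 transcripts recur in other genes, mostly in the predicted gene Gm5966. The share was 10.5% for Csf3r, 4.01% for Cxcr2 and 0.0784% for Fpr1, and 0 for S100a8, S100a9, Retnlg and Trem1. Counts of Fpr2 are uncertain to that extent. Fpr3 itself had 3 counts over the 16 libraries.

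In vehicle-treated tumours, per kilobase of exon, S100a9 ranked first at 105 ± 24.9 CPM per kb (SD, n = 4). S100a8 was next at 43.5 ± 8.96, and Csf3r followed at 22.2 ± 2.52 CPM per kb. The ranges of these 3 did not overlap one another. Fpr2 (5.06 ± 0.855) and Cxcr2 (4.52 ± 0.714 CPM per kb) did not differ beyond their spread. Neither did Retnlg (1.92 ± 0.884), Fpr1 (1.8 ± 0.490) and Trem1 (1.47 ± 0.612 CPM per kb).

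**Figure D1:**
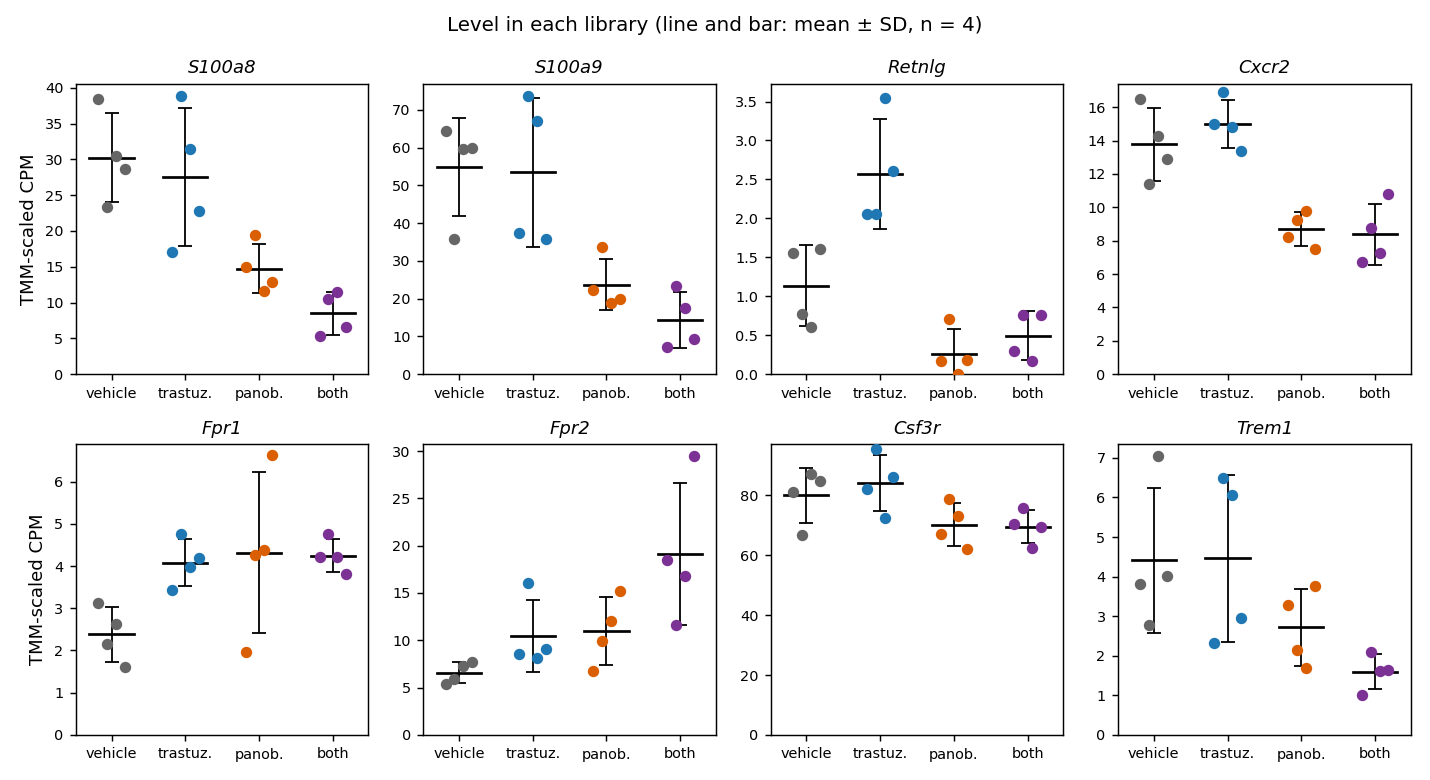
TMM-scaled CPM of each gene (vertical axis, from 0, own scale per panel) in 4 libraries per group (horizontal axis); points are libraries, lines and bars the mean ± SD. S100a8 and S100a9 step down from vehicle to panobinostat to both drugs (means of 54.9, 23.6 and 14.4 CPM for S100a9), while Fpr2 is highest with both drugs (19.1 CPM) and Csf3r stays between 62.0 and 95.4 CPM.

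The values below are in CPM and follow mouse numbers 3, 6, 21 and 29 for vehicle, 12, 15, 20 and 24 for trastuzumab, 4, 7, 8 and 13 for panobinostat, and 2, 11, 16 and 22 for the combination. S100a8 stood at 30.4, 28.6, 38.4 and 23.4 in vehicle and at 17.0, 38.9, 31.5 and 22.8 with trastuzumab. It stood at 19.4, 11.6, 12.9 and 14.9 with panobinostat and at 11.5, 5.39, 10.5 and 6.59 with the combination. Every panobinostat library lay below every vehicle library, every combination library lay below every panobinostat library (11.5 against 11.6 at the nearest), and trastuzumab spanned the whole vehicle range. S100a9, its partner, stood at 59.5, 59.9, 64.5 and 35.7 in vehicle and at 37.5, 73.6, 67.0 and 35.7 with trastuzumab. With panobinostat it stood at 33.7, 18.9, 19.9 and 22.2, and with the combination at 17.5, 7.14, 23.4 and 9.38. All 8 libraries with panobinostat lay below all 8 without it for S100a9.

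Cxcr2 showed the same division with a smaller gap. Its levels were 14.3, 12.9, 16.5 and 11.4 in vehicle and 15.0, 16.9, 14.8 and 13.4 with trastuzumab. They were 9.26, 9.78, 7.52 and 8.20 with panobinostat and 7.28, 6.70, 8.76 and 10.8 with the combination. Panobinostat alone and the combination overlapped, at means of 8.69 and 8.38 CPM. Of the 8 genes, S100a9 and Cxcr2 had all 8 libraries with panobinostat below all 8 without it. Over all tested genes the share with that pattern was 0.243%, and since the combination libraries entered the choice of the genes, nothing is read from this count.

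Retnlg was scarce, so its counts are given first. They were 3, 10, 9 and 5 reads in vehicle and 15, 13, 17 and 15 with trastuzumab. They were 4, 0, 1 and 1 with panobinostat and 1, 2, 4 and 6 with the combination. The trastuzumab group was above every library of the other 3 groups, and 1 panobinostat library was at 0. As mean levels this was 1.14 ± 0.524 CPM in vehicle, 2.57 ± 0.703 with trastuzumab, 0.264 ± 0.310 with panobinostat and 0.494 ± 0.313 with the combination (SD, n = 4).

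The formyl peptide receptors were at their lowest in vehicle. Fpr1 stood at 2.62, 1.61, 3.13 and 2.16 in vehicle and at 3.43, 4.75, 3.97 and 4.18 with trastuzumab. It stood at 4.27, 4.39, 6.63 and 1.97 with panobinostat and at 4.21, 4.22, 4.76 and 3.80 with the combination. The 3 treated groups had means within 4.08 to 4.31 CPM against 2.38 in vehicle, and 1 panobinostat library fell within the vehicle range. Fpr2 stood at 7.24, 7.72, 5.39 and 5.86 in vehicle and at 8.51, 16.1, 8.14 and 9.06 with trastuzumab. It stood at 9.97, 12, 15.2 and 6.73 with panobinostat and at 16.8, 18.5, 11.6 and 29.5 with the combination. Each treated group had a higher mean than vehicle, at 10.5, 11 and 19.1 against 6.55 CPM. Again 1 panobinostat library, at 6.73 CPM, fell within the vehicle range, and both single-drug groups overlapped the combination.

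Csf3r varied little between groups. It stood at 87.1, 85.0, 81.2 and 66.9 in vehicle and at 82.3, 95.4, 72.6 and 86.3 with trastuzumab. It stood at 78.7, 73.0, 62.0 and 67.1 with panobinostat and at 62.4, 70.5, 75.8 and 69.3 with the combination. All groups overlapped. Trem1 was low throughout, at 7.04, 4.02, 3.82 and 2.77 in vehicle and 2.33, 6.49, 6.05 and 2.96 with trastuzumab. It was 2.14, 1.69, 3.76 and 3.28 with panobinostat and 1.62, 1.02, 2.10 and 1.65 with the combination. The combination libraries all lay below those of vehicle and of trastuzumab, whereas panobinostat alone overlapped every other group.

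The panobinostat-alone libraries were in neither of the comparisons that chose the genes, but the vehicle and trastuzumab libraries they are set against were. In the fit used here all 16 libraries share an estimate of the spread. Calls in comparisons without the panobinostat-alone libraries can therefore still depend on them. Against vehicle, S100a8 was lower with panobinostat by a log2 change of -1.04 (SE 0.26), S100a9 by -1.21 (SE 0.32) and Cxcr2 by -0.66 (SE 0.17). For these 3 genes the 4 libraries of one group did not overlap the 4 of the other, a separation shown by 5.23% of all tested genes. Retnlg had the largest estimate, -2.06 (SE 0.64), on 27 reads in vehicle and 6 with panobinostat. Fpr1 and Fpr2 leaned the other way, by 0.86 (SE 0.30) and 0.74 (SE 0.31). Csf3r was at -0.19 (SE 0.11) and Trem1 at -0.68 (SE 0.38).

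In that comparison edgeR's quasi-likelihood F test with Benjamini-Hochberg adjustment called 0 of the 8 genes, against 0.192% of all tested genes. At an unadjusted p under 0.05 it counted 6 of the 8, against 8.10% of all genes. DESeq2 called 2 of the 8, S100a8 and S100a9, against 0.987% of all genes, and limma voom called 0. Without vehicle mouse 21 the log2 change was -0.90 for S100a8 and -1.13 for S100a9. The median log2 change of the 8 genes was -0.67, and that of all tested genes was 0.01. Since the vehicle libraries entered the choice of the genes, nothing is read from these counts and medians.

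Trastuzumab alone against vehicle left calprotectin near its vehicle level, with log2 changes of -0.13 (SE 0.25) for S100a8 and -0.04 (SE 0.31) for S100a9. Retnlg, Fpr1 and Fpr2 were higher by 1.12 (SE 0.43), 0.78 (SE 0.30) and 0.68 (SE 0.31), each with no overlap between the groups, a separation that 2.31% of all tested genes showed. Cxcr2 (0.13, SE 0.16), Csf3r (0.07, SE 0.11) and Trem1 (0.02, SE 0.36) had log2 changes smaller than their SE. The edgeR test called 0 of the 8 genes and 0% of all genes. At an unadjusted p under 0.05 it counted 3 of the 8, against 3.52% of all genes, and DESeq2 and limma voom called 0 of the 8. Libraries of both groups entered the choice of the genes, so nothing is read from these counts.

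Between the single-drug groups the widest gap was that of Retnlg, lower with panobinostat by a log2 change of -3.19 (SE 0.57), on 6 reads over 4 libraries against 60. Retnlg was 1 of the genes called lower with panobinostat, which were 0.0448% of those tested. It stayed called in 4 of 16 fits that each left out 1 library, those without trastuzumab mouse 12, vehicle mouse 29, combination mouse 2 or panobinostat mouse 4. Cxcr2 was lower by -0.79 (SE 0.17), S100a9 by -1.17 (SE 0.32) and S100a8 by -0.90 (SE 0.26). Retnlg, Cxcr2 and S100a9 did not overlap between these groups, as did 5.12% of all tested genes. Fpr1 and Fpr2 were at 0.07 (SE 0.28) and 0.06 (SE 0.30). Csf3r was at -0.26 (SE 0.11) and Trem1 at -0.69 (SE 0.37). The 2 comparisons with panobinostat share the panobinostat libraries, and those with vehicle share the vehicle libraries.

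**Figure D2:**
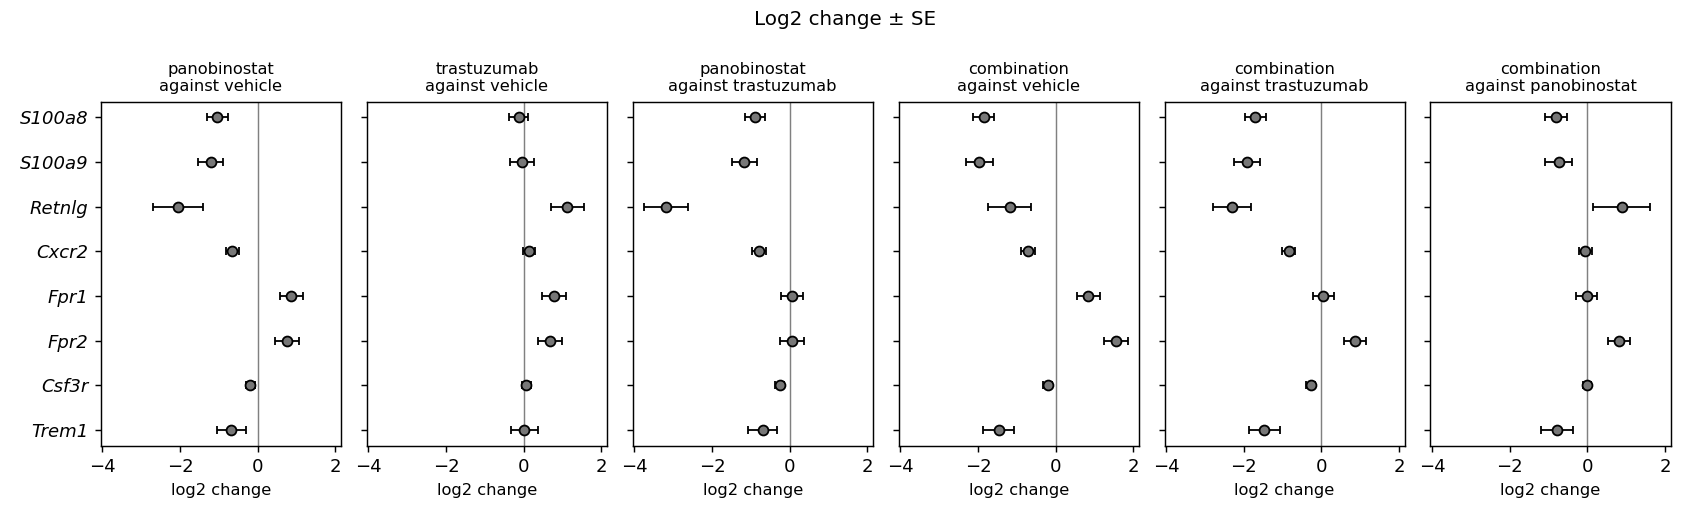
Log2 change (horizontal axis, first group minus second) with its SE for the 8 genes (rows) in 6 comparisons (panels), as a description with no test. S100a8, S100a9 and Cxcr2 lie left of 0 in the 4 panels that set a panobinostat group against one without it, and Retnlg reaches -3.19 between the single-drug groups.

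With both drugs the calprotectin genes stood at their lowest. Against vehicle the log2 change was -1.85 (SE 0.27) for S100a8 and -1.96 (SE 0.34) for S100a9, or ratios of 0.278 and 0.257. Trem1 was at -1.46 (SE 0.40), Retnlg at -1.18 (SE 0.55) and Cxcr2 at -0.71 (SE 0.17). Fpr2 was at 1.56 (SE 0.30), a ratio of 2.94, and Fpr1 at 0.84 (SE 0.30). Csf3r was at -0.20 (SE 0.11). S100a8, S100a9 and Cxcr2 were among the genes called lower, 0.500% of those tested, and Fpr2 among those called higher, 1.70%. The groups did not overlap for 6 of the 8 genes, against 7.33% of all genes. Such values chose these genes and are given as a description. Without vehicle mouse 21 the log2 change was -1.70 for S100a8, -1.86 for S100a9 and 1.48 for Fpr2. The call of Cxcr2 was lost without vehicle mouse 3, 6 or 21, combination mouse 2, 11 or 16, or panobinostat mouse 4.

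Set against trastuzumab, the combination had log2 changes of -1.71 (SE 0.27) for S100a8, -1.92 (SE 0.34) for S100a9, -2.31 (SE 0.49) for Retnlg and -0.84 (SE 0.17) for Cxcr2. These 4 genes were among those called lower, 0.160% of the genes tested, and no overlap was seen for 5 of the 8 genes, against 5.07%. Fpr2 was at 0.87 (SE 0.29) and Fpr1 at 0.05 (SE 0.28). The call of S100a8 and of S100a9 was lost without trastuzumab mouse 15 or 20 or combination mouse 11 or 22. That of Retnlg remained only without vehicle mouse 6, combination mouse 16 or panobinostat mouse 4 or 7. That of Cxcr2 was lost without any 1 of the trastuzumab mice, vehicle mouse 3, combination mouse 2 or 11, or panobinostat mouse 4.

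Between the combination and panobinostat alone, S100a8 was at -0.81 (SE 0.28), S100a9 at -0.74 (SE 0.34) and Trem1 at -0.78 (SE 0.42). In the other direction Retnlg was at 0.88 (SE 0.73) and Fpr2 at 0.81 (SE 0.29). Cxcr2, Fpr1 and Csf3r were at -0.05, -0.02 and -0.01. The edgeR test called 0% of all genes and 0 of the 8, and DESeq2 and limma voom also called 0 of the 8. At an unadjusted p under 0.05 edgeR counted 3 of the 8, against 4.48% of all genes, and nothing is read from these counts. S100a8 alone had groups that did not overlap, against 2.79% of all genes. The departure of the combination from the sum of the single-drug log2 changes was -0.68 (SE 0.38) for S100a8, -0.70 (SE 0.46) for S100a9, -0.80 (SE 0.41) for Fpr1 and 0.13 (SE 0.42) for Fpr2.

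Ratios of reads between genes of 1 library do not depend on scaling. The ratio of S100a8 to S100a9 reads was 0.560 ± 0.0805 in vehicle, 0.523 ± 0.0837 with trastuzumab, 0.629 ± 0.0421 with panobinostat and 0.641 ± 0.135 with the combination (SD, n = 4). The group ranges overlapped. Two-sided exact permutation tests gave p = 0.229 for panobinostat against vehicle, 0.514 for trastuzumab against vehicle and 0.0857 for panobinostat against trastuzumab, or 0.344, 0.514 and 0.257 adjusted over the 3, where 0.0286 is the smallest p possible. A difference in a lone comparison could not pass after adjustment over the 3, even at that smallest p. The tests therefore cannot show that the ratio stayed the same, and nothing is concluded from them. The ratio of S100a9 to Csf3r reads was 0.535 to 0.794 in vehicle and 0.414 to 0.922 with trastuzumab. With panobinostat it was 0.259 to 0.428, and with the combination 0.101 to 0.309. The ratio of Fpr2 to S100a9 reads was 0.0836 to 0.164 in vehicle and 0.121 to 0.254 with trastuzumab. It was 0.296 to 0.766 with panobinostat and 0.496 to 3.15 with the combination, so that in 2 combination libraries, from mice 11 and 22, Fpr2 had more reads than S100a9. The ratios of S100a9 to Csf3r and of Fpr2 to S100a9 are given without a test.

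**Figure D3:**
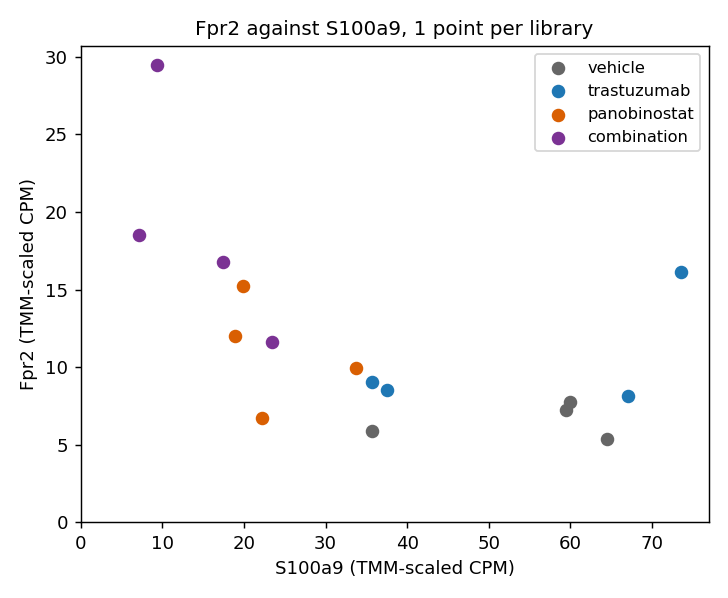
Fpr2 (vertical axis) against S100a9 (horizontal axis), both in TMM-scaled CPM, 1 point per library, coloured by group. Combination libraries occupy the upper left (S100a9 from 7.14 to 23.4, Fpr2 from 11.6 to 29.5 CPM), and vehicle libraries the lower right (S100a9 from 35.7 to 64.5, Fpr2 from 5.39 to 7.72 CPM).

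The genes also varied among mice of 1 group. With group means subtracted from log2 CPM, S100a8 and S100a9 had Pearson's r = 0.92 and Spearman's rho = 0.90 over 16 libraries, with permutation p = 0.000180 and 0.000340 (100000 permutations; adjusted over 28 pairs, 0.00504 and 0.00952). Without the 2 libraries farthest from the median, r was 0.93. No other pair passed. Trem1 came next, with r = 0.61 to S100a8 (adjusted permutation p 0.324) and r = 0.61 to S100a9 (adjusted permutation p 0.324). Csf3r and Cxcr2 had r = 0.51, Fpr1 and Fpr2 0.37, and S100a9 and Fpr2 -0.20. Members of the pair share library and depth, and this family of tests was added after the data were examined.

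**Figure D4:**
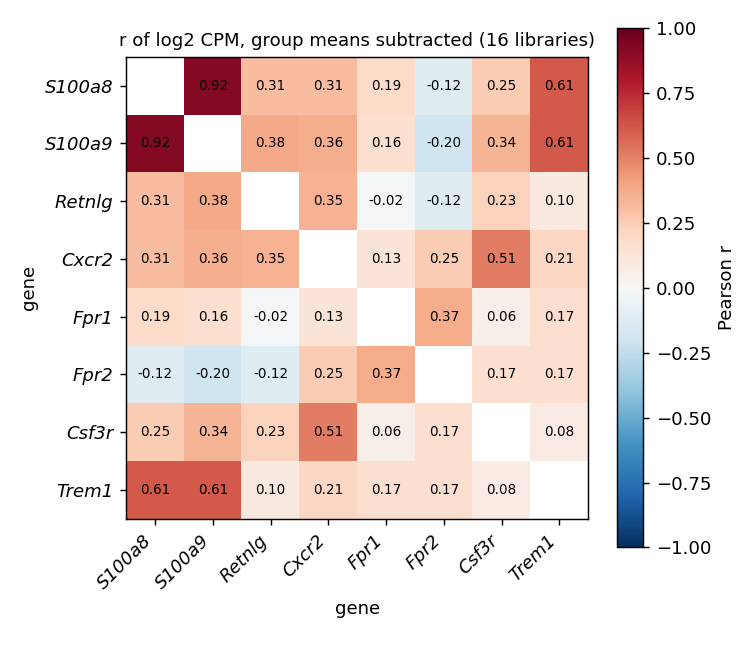
Pearson r of log2 CPM between each pair of the 8 genes (both axes) over 16 libraries after group means were subtracted; red is positive and blue negative. S100a8 and S100a9 at 0.92 stand apart from the other pairs, the next being Trem1 with either of them at 0.61.

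Among other genes of at least 1 CPM, those whose log2 level followed each of the 8 most closely over the 16 libraries were found by Pearson's r, given as a description with the value after subtraction of group means. P2ry12 was nearest to S100a8 (r = 0.91, 0.67 within groups), Gad1-ps to S100a9 (0.91, 0.87), Amz1 to Retnlg (0.87, 0.51) and Ube2w to Trem1 (0.86, 0.75). For Cxcr2 the nearest were Osgin1 (0.87, 0.49) and the chemokine receptor Cxcr4 (0.85, 0.16). Hoxd3 was nearest to Fpr1 (0.87, 0.86). The genes nearest to Fpr2 were Cd69, an early activation antigen of leukocytes (0.91, 0.86), Cd86, a costimulatory ligand of antigen-presenting cells (0.90, 0.78), and Aim2, a sensor of cytosolic DNA (0.90, 0.74). Near Csf3r were Dnajb14 (0.78, 0.58) and Sec24a (0.77, 0.73).

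The wider pathways were examined through 13 lists with 88 distinct tested genes, chosen with earlier results of these data known. Adjusted p values over all genes are given for them, and since the lists were so chosen they are not independent evidence. Panobinostat against vehicle gave 0 called higher and 1 called lower among the 88, with a median log2 change of 0.01. Over all genes 0.192% were called there in either direction. Trastuzumab against vehicle gave 0 in both directions. Panobinostat against trastuzumab gave 0 higher and 1 lower, where 0.0448% of all genes were called lower. The combination against vehicle gave 7 higher and 2 lower, against 1.70% and 0.500% of all genes, with a median of 0.09. The single gene lower in each of the comparisons with panobinostat alone was Cxcr4, the receptor that holds neutrophils and other leukocytes in the bone marrow through Cxcl12. Its level was 68.2 ± 7.56 CPM in vehicle, 71.9 ± 10.6 with trastuzumab, 41.9 ± 2.15 with panobinostat and 43.5 ± 5.98 with the combination (SD, n = 4). It fell by 0.70 on the log2 scale with panobinostat against vehicle (adjusted p 0.0383, edgeR).

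Among ligands of these receptors Saa3 alone was called. Of 4 tested CXCR2 ligands none was called. Cxcl2, a neutrophil attractant made by macrophages, was 4.12 ± 1.49 CPM in vehicle and 1.16 ± 0.674 with panobinostat (log2 change -1.79, SE 0.42, adjusted p 0.122, edgeR). Cxcl1 and Cxcl5 were at 1.89 ± 0.403 and 2.16 ± 0.524 CPM in vehicle, with log2 changes of -0.27 and -0.55 that did not pass. Csf3, the ligand of Csf3r, had 19 reads over the 16 libraries. Saa3, an acute-phase protein, was 70.4 ± 12.5 CPM in vehicle and 175 ± 61.3 with the combination, a rise of 1.31 (SE 0.25, adjusted p 0.00926, edgeR), and 103 ± 34.2 with panobinostat alone (adjusted p 0.583).

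Receptors and partners of calprotectin gave few calls. Of 10 tested, 0 were called with panobinostat alone, and with the combination 1 was called lower, against 0.500% of all genes. It was Cd33, a lectin of myeloid cells (40.1 ± 5.37 CPM in vehicle, 27.6 ± 2.40 with the combination, log2 change -0.54, adjusted p 0.0439, edgeR). Tlr4 stood at 48.8 ± 13.8 CPM in vehicle and 48.4 ± 12 with the combination. In the list of S100 genes, which also held the binding-protein gene S100pbp, 12 tested genes gave 0 calls in the 6 comparisons (edgeR). The abundant S100a6 was 3469 ± 512 CPM in vehicle and 3023 ± 410 with the combination. In the resistin family, Retn and Retnla had wide spreads, 112 ± 73.4 and 19.1 ± 21.5 CPM in vehicle, and were not called. Of 8 tested TREM relatives and partners 0 were called; the adaptor Tyrobp was 325 ± 24.6 CPM in vehicle and 360 ± 62.3 with the combination, and Trem2 was 213 ± 34.7 and 185 ± 23.2.

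In the list of G-CSF and GM-CSF genes, 3 of 8 tested rose with the combination against vehicle, a direction in which 1.70% of all genes were called. They were the cytokine receptor chains Csf2ra, by 0.42 (adjusted p 0.0223), Csf2rb, by 0.47 (adjusted p 0.0402), and Csf2rb2, by 0.54 (adjusted p 0.0223, edgeR). Csf3r, not in that count, was at -0.20. Csf2rb and Csf2rb2 are near-identical copies, so their reads may have been divided between them. Among 16 tested neutrophil surface and cytoplasm genes, 3 rose with the combination, among them the Fc receptor Fcgr4 by 1.41 (adjusted p 0.00184) and the membrane protease Mmp25 by 1.91 (adjusted p 0.00384, edgeR). Fcgr4 was 61.2 ± 8.83 CPM in vehicle and 163 ± 65.9 with the combination, and Mmp25 was 1.70 ± 0.466 and 6.42 ± 2.18 CPM. Il1b in the same list was 98.7 ± 28.7 CPM in vehicle and 60.5 ± 9.88 with panobinostat (log2 change -0.70, adjusted p 0.179).

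Granule genes gave 0 calls in the 6 comparisons by edgeR, over 2 tested primary granule genes and 7 tested secondary and tertiary ones. Mmp8, neutrophil collagenase, was 1.02 ± 0.624 CPM in vehicle and 3.72 ± 1.52 with the combination (log2 change 1.90, SE 0.49, adjusted p 0.0551). Mmp9, a gelatinase that macrophages also make, was 36.3 ± 8.71 and 26.2 ± 4.65. Lcn2 was 86.6 ± 14.8 and 114 ± 18.5, and Ltf 37.6 ± 20.6 and 59.7 ± 21.3 CPM. Prtn3 was 12.5 ± 7.46 and 13.4 ± 4.72 CPM. Haptoglobin, Hp, was 1420 ± 428 and 1644 ± 320, Cybb, the catalytic subunit of the phagocyte oxidase, 220 ± 25.5 and 301 ± 25.1 (adjusted p 0.0750), and the protease Ctsc 426 ± 65.6 and 549 ± 49.4 CPM. The 8 tested chemoattractant receptors and 5 tested granulocyte transcription factors also gave 0 calls by edgeR in the 6 comparisons. The most abundant were the anaphylatoxin receptor C3ar1, 157 ± 25.9 CPM in vehicle and 190 ± 20.6 with the combination, and the transcription factor Cebpa, 236 ± 36.5 and 248 ± 27.2 CPM.

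**Figure D5:**
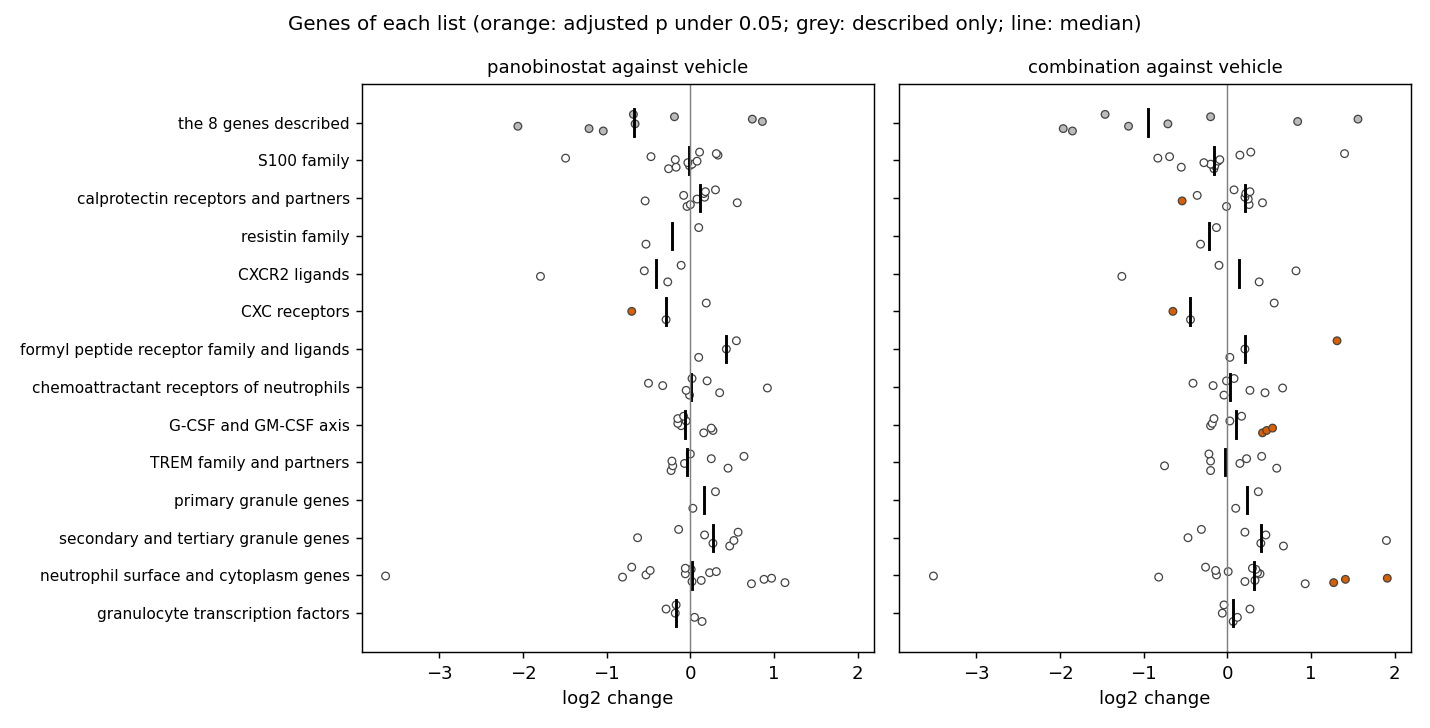
Log2 change (horizontal axis) of the 8 genes and of the tested genes in 13 lists (rows) for panobinostat against vehicle (left) and the combination against vehicle (right); orange marks an adjusted p under 0.05 among list genes, grey the 8 genes, given as a description, black lines medians. The 8 genes have medians of -0.67 and -0.94, and the far left point among surface and cytoplasm genes is Asprv1.

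Asprv1, a protease of neutrophils and of epidermis named here after its values were seen, had 238 reads in vehicle mouse 21 and 2 to 30 in the other libraries, and its change was not called. Other cell-type markers differed between groups as well, not all of them along with panobinostat. The 6 erythroid markers with a value summed to 311 to 1128 CPM in vehicle and 242 to 815 with trastuzumab, against 137 to 206 with panobinostat and 78.3 to 121 with the combination. Like S100a8 and S100a9, they were lowest with the combination and next lowest with panobinostat. All 5 tested erythroid markers were called lower for the combination against vehicle, against 0.500% of all tested genes, with a median log2 change of -2.49. The 5 monocyte markers summed to 842 to 1258 CPM in vehicle, 940 to 987 with trastuzumab, 1143 to 1652 with panobinostat and 1204 to 1736 with the combination. The 6 fibroblast markers summed to 16027 to 24071 CPM in vehicle, 12955 to 20577 with trastuzumab, 11758 to 18705 with panobinostat and 11889 to 14663 with the combination. All 6 had log2 changes below 0 against vehicle, with medians of -0.55 for panobinostat and -0.49 for the combination, and none was called. The 7 dendritic cell markers summed to 113 to 129 CPM in vehicle, 131 to 180 with trastuzumab, 122 to 141 with panobinostat and 169 to 187 with the combination. The 4 platelet markers summed to 13.5 to 32.8, 19.5 to 34.5, 39.2 to 55.8 and 32.0 to 50.7 CPM in the same order of groups. The dendritic cell sums of vehicle overlapped those of panobinostat, but not those of trastuzumab or the combination. Sums of the other marker lists overlapped between vehicle and the combination. Called higher for the combination against vehicle were 1 of 5 tested monocyte, 1 of 7 dendritic cell and 1 of 2 platelet markers. So were 1 of 12 macrophage and 1 of 7 NK cell markers, where 1.70% of all tested genes were called higher. The part of these shifts in the values of the 8 genes was not tested.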

How the data were processed

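The authors deposited raw read counts per mouse gene symbol for 16 libraries. Per the submitters' processing notes, CASAVA 1.8.2, TopHat2 and HTSeq were used with build mm10; whether human reads were removed is, like the settings and the annotation release, not given in the sources used here. Per the labels the kit is one that keeps no strand, so reads of genes overlapping in antisense cannot be separated. Of 24681 symbols, 1327 without a value in some libraries were left out, and 23354 remained. Counts were scaled by TMM and filtered with filterByExpr, leaving 15610 genes, and tested with edgeR 4.0.16 (R 4.3.3) in 1 fit of all 16 libraries with 1 mean per group. The script was tested on simulated counts. Differences in level of the 8 genes between groups are given without p, since libraries of every comparison had entered their choice. The ratio of S100a8 to S100a9 reads has a p from those same libraries, and nothing is concluded from it. Calls were made at an adjusted p under 0.05 (Benjamini-Hochberg, over all tested genes). The SE is approximate and was taken as the size of the log2 change over the square root of its F statistic. Alternatives were DESeq2 1.42.0, limma voom 3.58.1, other scalings, no filter, only the groups compared, and each library left out. Correlations used log2 CPM with a prior count of 2. No mouse number occurred in more than 1 group, so no libraries were paired.

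The 8 genes, the 13 pathway lists and 14 marker lists, and the rule for naming genes were chosen with earlier results of these data known. Named were all 8 genes; from each pathway list the called genes or, with none called, the 2 of highest level; a fixed set of ligands, granule and adaptor genes; and the 3 genes of highest r to each of the 8, of which the text gives some. Cell-type markers are named where they moved with a result. Sequences are from RefSeq (GRCm38.p6); all 8 genes matched by symbol. Some genes that meet the rule are not reported here.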

Additional observations from a re-analysis of the deposited data

Results flagged for a closer look

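Fpr2 in the trastuzumab group had 1 library far from the others: mouse 15 stood at 16.1 CPM, and the other 3 mice stood at 8.51, 8.14 and 9.06 CPM. Of 36 groups of 4 libraries examined for such a gap this was the 1 found, where chance alone marks about 1 in 20. The same mouse had the highest S100a8, S100a9, Cxcr2, Fpr1, Csf3r and Trem1 levels of its group.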

How the results depend on the processing

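Over the 6 comparisons between groups, the 9 calls of the 8 genes were kept in 43 of 54 values under other settings and in 97 of 144 leave-one-out values, and lost in 11 and 47. The 39 uncalled changes were called in 7 of 230 values under other settings and in 1 of 624 leave-one-out values. In the 3 comparisons without the combination 22 recomputed log2 changes had another sign, all of them of uncalled changes near 0. For trastuzumab against vehicle, leaving out each library in turn gave log2 changes of -0.36 to 0.04 for S100a8, -0.24 to 0.12 for S100a9, 0.00 to 0.14 for Csf3r and -0.25 to 0.33 for Trem1. For panobinostat against trastuzumab it gave -0.21 to 0.32 for Fpr1 and -0.14 to 0.34 for Fpr2. With limma voom Trem1 was at -0.04 in the first of these comparisons and Fpr1 at -0.04 in the second. For panobinostat against vehicle, 2 of the 8 genes were called by DESeq2, 2 with only the groups compared, and 0 in each leave-one-out fit. For panobinostat against trastuzumab, DESeq2 called 2, no filter on low counts 0, only the groups compared 0, and leave-one-out fits 0 to 1. For the combination against trastuzumab, limma voom called 2, only the groups compared 0, and leave-one-out fits 0 to 4. For the combination against vehicle, leave-one-out fits called 3 to 5. Calls over all genes moved as well. For the combination against trastuzumab edgeR called 98 of all genes, limma voom 11, only the groups compared 5, and leave-one-out fits 3 to 179. For the combination against vehicle edgeR called 343 and leave-one-out fits 201 to 379. The causes were not tested. Over all genes, DESeq2 called 154 for panobinostat against vehicle (edgeR 30), 12 for trastuzumab against vehicle (edgeR 0) and 69 for panobinostat against trastuzumab (edgeR 10). With only the groups compared, 58 of all genes were called for panobinostat against vehicle and 15 for panobinostat against trastuzumab. Leave-one-out fits called 3 to 72 and 2 to 16 in these 2 comparisons. Without the filter on low counts, 8 were called for panobinostat against trastuzumab. The ratio of S100a8 to S100a9 moved by less than 1 SD without each library. No paired analysis was possible because the groups share no mouse number. Retnlg, with 0 to 17 reads per library, is limited by depth.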
